A study of Mus musculus with 10 samples.

Results

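Actb, Gapdh and Pgk1 were followed on every array of a mouse testis series through 5 probes. Each array held 60691 probes for mouse transcripts, a count that includes the Actb probe but not the control probes. The probes were chosen by name: the control spots Mouse-GAPDH_3, Mouse-GAPDH_5, Mouse-PGK1_3 and Mouse-PGK1_5, and the 1 A_51_P probe, A_51_P173760, whose transcript accession is the RefSeq mRNA of Actb. They are called Gapdh_3, Gapdh_5, Pgk1_3, Pgk1_5 and Actb here. The files do not say what the endings _3 and _5 mean; control probes of this kind are commonly placed toward the 3′ and the 5′ end of a transcript, and the endings are used below as names only. Each probe was printed as 10 spots, which gives 50 of the 62976 spots of an array. The 3 genes are among 47 that could be named on the array. Actb lies on mouse chromosome 5, Gapdh on chromosome 6 and Pgk1 on chromosome X in RefSeq.

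The tissue in both groups was testis of male C57BL/6J mice at 3 months of age. In the testosterone group (5 samples), the pregnant mother had received 2.5 mg/kg testosterone under the skin each day from day 14 to day 19 after mating. In the control group (5 samples), the mother had received the solvent, sesame oil and benzyl benzoate, over the same days. The labels call the 5 samples of a group biological replicates and do not say whether any shared a litter. The treatment was given to mothers, so animals of 1 litter would share it. RNA of each testis was split by immunoprecipitation into a bound fraction (IP) and the supernatant left behind (Sup). Both were amplified separately and hybridised together on 1 array, Sup in Cy3 and IP in Cy5. The labels used here do not name the antibody.

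Beta-actin, encoded by Actb, is the cytoplasmic actin that builds filaments of the cell cortex and of moving cells. Glyceraldehyde-3-phosphate dehydrogenase (Gapdh) and phosphoglycerate kinase 1 (Pgk1) catalyse neighbouring steps of glycolysis, and Pgk1 makes the first ATP of the pathway's payoff phase. All 3 are often used as reference genes to which other transcripts are scaled, on the assumption that they vary little. In testis that assumption has known limits, because the cell types differ in their use of these genes: the X-linked Pgk1 is silenced in meiotic germ cells, where the retrogene Pgk2 takes over, and sperm use a separate glyceraldehyde-3-phosphate dehydrogenase, Gapdhs. In whole testis, fewer cells of a type and less RNA per cell cannot be told apart.

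Some arrays stood apart before any comparison. Testosterone replicates 4 and 5 were on a slide of their own and were read in a second scan that held no control, so for them scan, slide and group cannot be told apart. The 75th percentile of all mouse probes was 1.41-fold lower there in Sup and 1.43-fold lower in IP than in testosterone replicates 1 to 3. Control replicates 1 to 4 were on a slide that held no testosterone array, and control replicate 5 shared its slide with testosterone replicates 1 to 3. Within the first scan, too, slide and group can therefore hardly be told apart. Control replicate 2 shared its slide with control replicates 1, 3 and 4 and had a like 75th percentile (1658 in Sup, against 1597 to 1671 on the other control arrays), but its values for all 3 genes lay away from those of the other controls. Group differences that moved by much without these arrays are also given without them. Of the 50 A_51_P probes, 45 could be named, and none of the marker genes listed for Sertoli, Leydig, peritubular and blood cells or macrophages was among them. Germ cell markers were represented by Spats1 and Hyal3, so the tissue label could not be checked further.

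The probes for Actb, Gapdh and the _3 probe of Pgk1 were well above background in both fractions on 10 of 10 arrays, a probe being counted so when at least as many of its unflagged spots as not were marked by the scanner software. Pgk1_5 was well above background in neither fraction on any array. No spot of these probes was saturated. Between the spots of 1 array, the median SD of the log2 signal was 0.0416 for Actb, 0.0604 for Gapdh_3, 0.0335 for Gapdh_5 and 0.0337 for Pgk1_3 in Sup. In IP the corresponding SDs were 0.120, 0.118, 0.0793 and 0.0824. In Sup, the SD of the scaled signal between arrays of a group was larger than this, at 0.346, 0.239, 0.202 and 0.266 in the same order. In IP it was larger for Actb, Gapdh_5 and Pgk1_3 and, at 0.0547, smaller for Gapdh_3, whose value is a mean over spots.

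The Actb probe gave a Sup signal of 4493, 3677, 5206, 6036 and 4783 in control replicates 1 to 5. In testosterone replicates 1 to 5 its Sup signal was 4624, 5356, 6710, 2368 and 2388. These are processed intensities, which the scanner software had corrected for background and dye. Testosterone replicates 4 and 5 were the lowest of the 10, and testosterone replicate 3 the highest.

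Its IP signal was 1853, 1538, 1887, 2206 and 1891 in the controls. The testosterone arrays gave 1510, 1905, 2779, 593 and 694 in IP. In both fractions the groups overlapped, and in IP the testosterone arrays spanned a wider range than the controls on both sides. The mean signal of testosterone replicates 1 to 3 over that of replicates 4 and 5 was 2.31-fold in Sup and 3.12-fold in IP for Actb, beyond the 1.41-fold and 1.43-fold shift of the 75th percentile.

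Gapdh was measured by a pair of probes. Gapdh_3 had a Sup signal of 13981, 9289, 15424, 13900.5 and 13606 in control replicates 1 to 5. The testosterone arrays gave 11907, 13807, 12594, 6994 and 9211 in Sup. Control replicate 2 was the lowest array of the first scan and lay near testosterone replicate 5 of the second.

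In IP, Gapdh_3 was at 4381, 4246, 4623, 4832 and 4576 in the controls and at 3990.0, 4862, 4536, 3181 and 3140.3 in the testosterone group. Gapdh_5 had a Sup signal of 11315, 8098, 12122, 11922 and 11290.0 in the controls and 10021, 11283, 11481, 6206 and 6793 in the testosterone group. Its IP signal was 6676, 5046, 7207, 7103 and 6640.0 in the controls and 5606, 6731, 6383, 3956 and 3684 in the testosterone group. For Gapdh_5 control replicate 2 was the lowest control in both fractions, and the second-scan arrays were the lowest of all.

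Pgk1_3 had a Sup signal of 7584, 10284, 7833, 6526 and 6606 in control replicates 1 to 5. In the testosterone group it was 6452, 6714, 6887, 3329 and 3450. Here control replicate 2 was the highest of the 10 arrays, the opposite of its place for both Gapdh probes.

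The IP signal of Pgk1_3 was 4029, 4093, 4231, 4038 and 3399 in the controls and 3711, 3787, 4729, 1919.9 and 2212 in the testosterone group. Pgk1_5 gave 21.5 to 68.5 in Sup and 29.8 to 73.2 in IP over the 10 arrays, where the median negative control spot gave 16.2 to 19.8 in Sup and 16.5 to 20.6 in IP. No more than 2 of its spots on an array were marked as well above background in either fraction. Pgk1 is therefore described by its _3 probe alone, and no difference between the ends could be computed for it.

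**Figure D1:**
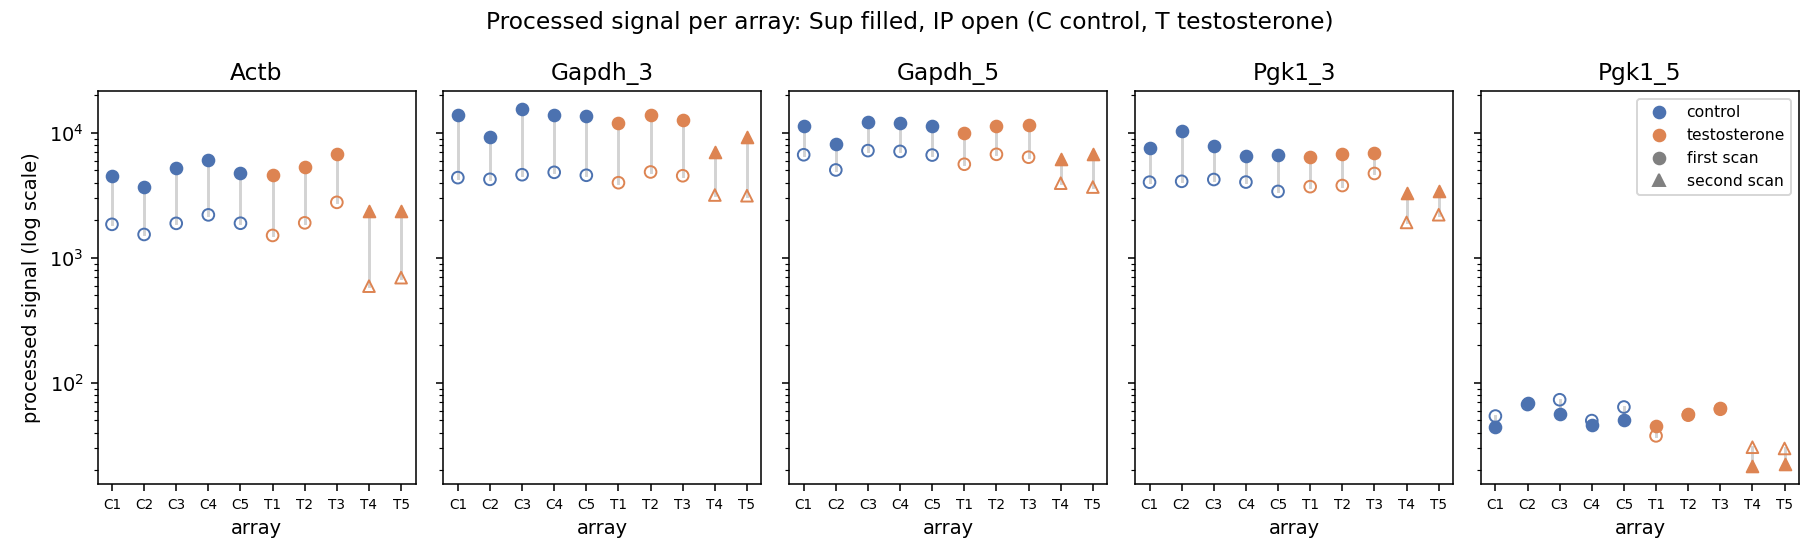
Processed signal (log axis) of each probe on each array, Sup as filled and IP as open symbols, with control arrays (C1 to C5) in blue, testosterone arrays (T1 to T5) in orange and the second scan as triangles. Testosterone replicates 4 and 5 are low for every probe, and control replicate 2 is low for both Gapdh probes and high for Pgk1_3 in Sup (10284).

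Abundance was compared after each fraction had been set relative to the 75th percentile of its array and the fractions summed, on a log2 scale. Neither Actb, Gapdh nor Pgk1 differed between the groups beyond the spread between arrays. Of 47571 probes tested over the whole array, 3 were called at an adjusted p under 0.05, which is 0.00631%, and none of the 4 detected probes described here was among them. At an unadjusted p under 0.05 there were 7487 such probes.

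Scaled Actb abundance was 1.96, 1.65, 2.08, 2.30 and 2.06 in control replicates 1 to 5 and 2.15, 2.16, 2.56, 1.45 and 1.51 in testosterone replicates 1 to 5. Each first-scan testosterone array was higher than at least 4 of 5 controls, and both second-scan arrays were lower than every control. Control replicate 4 (2.30) lay above testosterone replicates 1 and 2. The difference, testosterone minus control, was -0.05 ± 0.207 on the log2 scale (SE, n = 5 and 5, limma, adjusted p = 0.912). Its 95% interval ran from 0.708-fold to 1.33-fold. In the first scan alone the means were 2.01 ± 0.237 (SD, n = 5) and 2.29 ± 0.233 (SD, n = 3), and the difference turned to 0.28 (limma, adjusted p = 0.673). Without control replicate 2 it was -0.14 (limma, adjusted p = 0.775).

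Gapdh gave the narrower intervals. Scaled Gapdh_3 abundance was 3.49, 3.02, 3.58, 3.49 and 3.51 in the controls and 3.53, 3.52, 3.41, 3.23 and 3.51 in the testosterone group. Apart from control replicate 2 and testosterone replicate 4, all arrays fell between 3.41 and 3.58. The difference was 0.02 ± 0.116 (SE, n = 5 and 5, limma, adjusted p = 0.925), with a 95% interval from 0.852-fold to 1.21-fold.

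Gapdh_5 was at 3.46, 2.98, 3.52, 3.51 and 3.48 in the controls and at 3.50, 3.47, 3.47, 3.23 and 3.27 in the testosterone group. The difference was -0.0042 ± 0.118 (SE, n = 5 and 5, limma, adjusted p = 0.987), with a 95% interval from 0.834-fold to 1.19-fold. The sign of these small differences changed with the array left out, and that of Gapdh_3 also with quantile normalization (-0.06). Without control replicate 2 the difference was -0.08 for Gapdh_3 (limma, adjusted p = 0.686) and -0.11 for Gapdh_5 (limma, adjusted p = 0.579). With the second scan left out it was 0.07 and 0.09 (limma, adjusted p = 0.891 and 0.860).

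Scaled Pgk1_3 abundance was 2.83, 3.11, 2.84, 2.66 and 2.64 in the controls and 2.88, 2.69, 2.85, 2.27 and 2.38 in the testosterone group. The testosterone arrays of the first scan lay inside the range of the controls, and both second-scan arrays lay below it. The difference was -0.20 ± 0.140 (SE, n = 5 and 5, limma, adjusted p = 0.436), with a 95% interval from 0.703-fold to 1.07-fold. With the second scan left out it was -0.01 (limma, adjusted p = 0.983), and without control replicate 2 it was -0.13 (limma, adjusted p = 0.670). On the 1 slide that held both groups it was 0.16 (limma, adjusted p = 0.732), a value in which the single control array is assumed to vary as the testosterone arrays do. For all 4 probes, then, the intervals exclude a 2-fold difference on this scale. They do not show that the groups had the same level.

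The fractions taken one at a time showed no difference beyond the spread between arrays either. In Sup, scaled to its 75th percentile, the difference (testosterone minus control, log2) was 0.02 ± 0.201 for Actb and -0.29 ± 0.163 for Pgk1_3 (SE, n = 5 and 5, limma, adjusted p = 0.961 and 0.473). In IP it was -0.25 ± 0.273 for Actb and -0.04 ± 0.136 for Pgk1_3 (SE, n = 5 and 5, limma, adjusted p = 0.670 and 0.890). These values also rested on the second scan. In the first scan alone the IP means were 0.16 ± 0.183 (SD, n = 5) in the controls and 0.37 ± 0.353 (SD, n = 3) in the testosterone group for Actb, the opposite direction. For Pgk1_3 they were 1.25 ± 0.0995 and 1.39 ± 0.167 (SD, n = 5 and 3) in IP, also the opposite direction, and 2.22 ± 0.256 and 2.13 ± 0.0935 in Sup. For Actb in Sup they were 1.54 ± 0.260 and 1.85 ± 0.190.

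For the Gapdh probes the difference between groups ran from -0.03 to 0.08 over both fractions, with adjusted p from 0.610 to 0.998 by limma.

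The steadiest values belonged to Gapdh_3 in IP. Scaled to the 75th percentile they were 1.42, 1.34, 1.44, 1.52 and 1.503 in control replicates 1 to 5 and 1.52, 1.57, 1.48, 1.55 and 1.54 in testosterone replicates 1 to 5. The second-scan arrays lay among the others here, and control replicate 2 was the lowest by a small margin. The difference between groups was 0.08 ± 0.0788 (SE, n = 5 and 5, limma, adjusted p = 0.610).

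**Figure D2:**
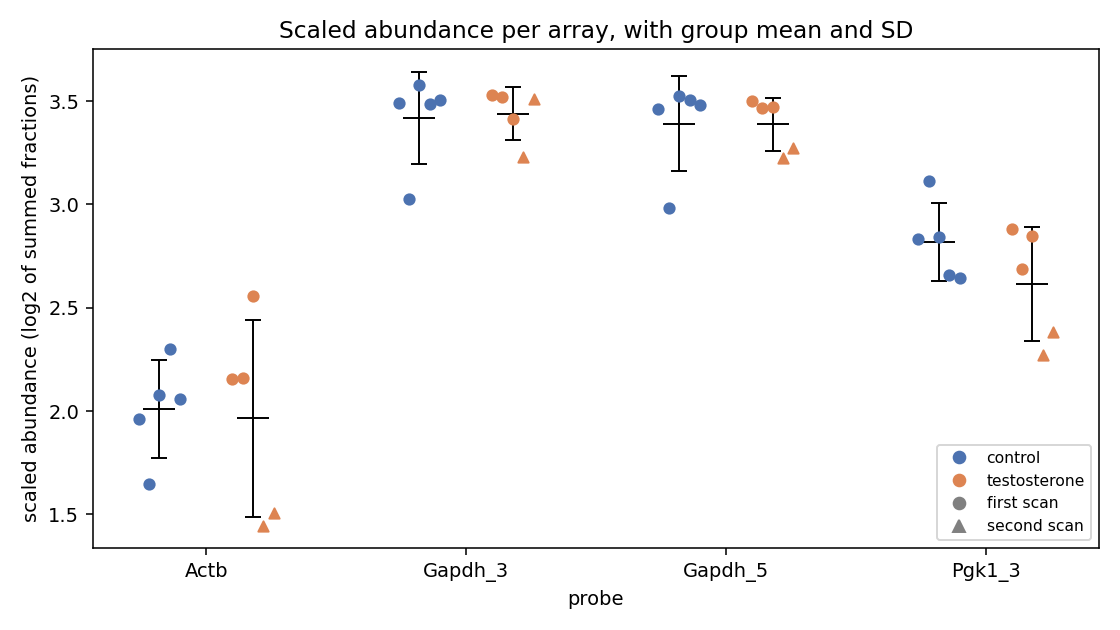
Scaled abundance (log2 of the summed fractions, each divided by its 75th percentile) on each array, with the group mean and SD (n = 5 per group) in black; triangles are the second scan. Actb and Pgk1_3 are low on both second-scan testosterone arrays, and control replicate 2 lies below the other controls for Gapdh_3 (3.02) and Gapdh_5 (2.98). Heights of different probes cannot be compared.

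The fractions were set against each other by log2 of IP over Sup minus the median of all mouse probes on that array, so 0 is the middle of the array and not an equal amount of RNA. All 4 detected probes lay on the Sup side. Probes called on the Sup side by at least 2-fold with an adjusted p under 0.05 made up 21.1% of the 41348 tested, and 19.5% were called on the IP side. Actb and Gapdh_3 were among the first. Gapdh_5 and Pgk1_3 passed the p threshold but not the 2-fold limit. Probes below the array median by any size at that p made up 43.7% of those tested.

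For Actb the ratio was -1.30, -1.25, -1.40, -1.45 and -1.34 in control replicates 1 to 5 and -1.53, -1.52, -1.20, -2.02 and -1.86 in testosterone replicates 1 to 5. Both second-scan arrays lay lower than every other array. The mean over groups was -1.49 ± 0.080 (SE, n = 10, limma, adjusted p = 5.01e-10), which is 2.80-fold toward Sup.

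For Gapdh_3 the ratio was -1.69, -1.12, -1.67, -1.53 and -1.58 in the controls and -1.49, -1.53, -1.40, -1.16 and -1.63 in the testosterone group. Its mean was -1.48 ± 0.075 (SE, n = 10, limma, adjusted p = 2.56e-10), or 2.79-fold toward Sup. Control replicate 2 and testosterone replicate 4 were the arrays nearest to 0.

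For Gapdh_5 the ratio was -0.78, -0.68, -0.68, -0.75 and -0.77 in the controls and -0.75, -0.77, -0.77, -0.68 and -0.96 in the testosterone group. Apart from testosterone replicate 5, these values lay from -0.78 to -0.68. The mean was -0.76 ± 0.059 (SE, n = 10, limma, adjusted p = 2.53e-08), or 1.69-fold toward Sup.

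For Pgk1_3 the ratio was -0.93, -1.32, -0.82, -0.69 and -0.97 in the controls and -0.71, -0.85, -0.47, -0.82 and -0.72 in the testosterone group. The mean was -0.83 ± 0.074 (SE, n = 10, limma, adjusted p = 1.16e-07), or 1.78-fold toward Sup. Control replicate 2 was the lowest array for Pgk1_3, whereas for Gapdh_3 it was the highest.

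Spike-in RNA had been added in equal amount to both fractions, and 21 spike-in probes were well above background in both fractions on all arrays. Their mean ratios ran from -1.56 to 1.40 with a median of -0.02, so the means of all 4 probes fell inside the range of spike-ins. Only 1 spike-in lay below Actb and Gapdh_3, 7 lay below Gapdh_5 and 6 below Pgk1_3. Dyes were not swapped, so dye and fraction cannot be told apart.

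The ratio did not differ between the groups beyond the spread between arrays for any of these probes. Over the whole array, 0 of 41348 probes were called at an adjusted p under 0.05 by limma, 0%, and 2496 had an unadjusted p under 0.05. The difference, testosterone minus control, was -0.28 ± 0.160 for Actb (SE, n = 5 and 5, limma, adjusted p = 0.794), with a 95% interval from 0.649-fold to 1.05-fold. With the second scan left out the Actb value was -0.07 (limma, adjusted p = 1.000). The difference with all arrays was 0.08 ± 0.150 for Gapdh_3 (limma, adjusted p = 0.917; 0.841-fold to 1.32-fold). For Gapdh_5 it was -0.05 ± 0.118 (limma, adjusted p = 0.924; 0.808-fold to 1.15-fold). For Pgk1_3 it was 0.23 ± 0.148 (limma, adjusted p = 0.794; 0.942-fold to 1.47-fold). Without control replicate 2 the difference was 0.17 for Gapdh_3 and 0.14 for Pgk1_3 (limma, adjusted p = 0.781 and 0.816).

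**Figure D3:**
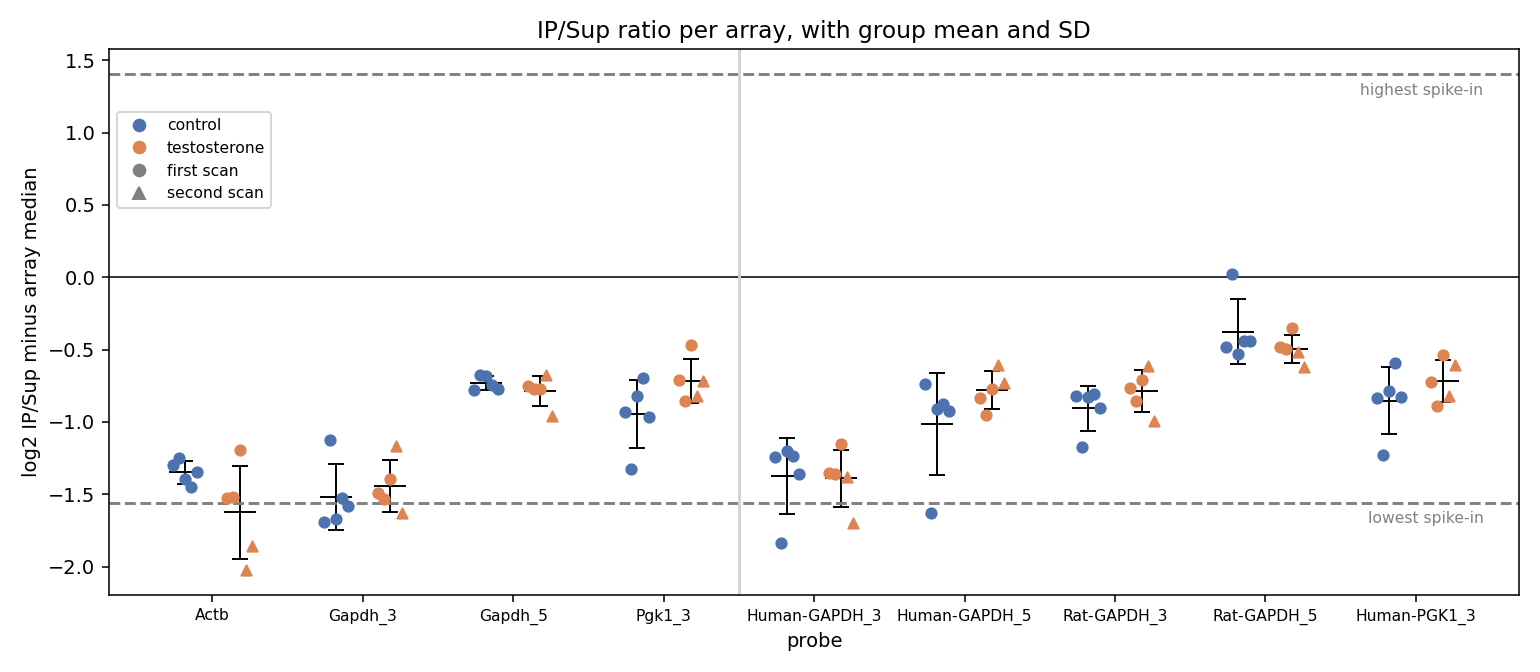
Log2 IP/Sup ratio minus the array median on each array, with the group mean and SD (n = 5 per group) in black, triangles for the second scan, and dashed lines at the lowest (-1.56) and highest (1.40) mean of 21 spike-in probes. Actb and Gapdh_3 lie lower than Gapdh_5 and Pgk1_3, and the control probes named for human and rat on the right show Gapdh_5 above Gapdh_3 as well.

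Both Gapdh probes are named for the same gene, and their ratios differed on every array. The ratio of Gapdh_5 exceeded that of Gapdh_3 by 0.72 ± 0.171 (SD, n = 10), or 1.65-fold, with a range of 0.45 to 0.99 over 10 of 10 arrays. An exact two-sided sign-flip test over the 1024 sign arrangements gave p = 0.00195, the smallest it can give, and 0.00586 after adjustment over 6 such pairs of probes. In the first scan alone the mean was 0.76, and without control replicate 2 it was 0.75. The 0.72 is a difference between probes named for 1 gene, close to that between Gapdh_5 and Actb (0.73, 10 of 10 arrays, exact sign-flip p = 0.00195). These tests cannot tell a difference between fractions from a fixed effect of probe or dye, which would repeat on every array. Dyes were not swapped, and spike-ins added in equal amount had mean ratios from -1.56 to 1.40.

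The arrays also held control probes named for the GAPDH of human and of rat, whose match to the mouse transcript was not examined here. All 4 were well above background in both fractions on 10 of 10 arrays. The _5 probe exceeded the _3 probe in the ratio by 0.48 ± 0.230 (SD, n = 10) for the human-named pair and by 0.41 ± 0.290 (SD, n = 10) for the rat-named pair, in each case on 10 of 10 arrays. If these probes hybridise with mouse Gapdh, they read the same molecules and are no independent sample.

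The other pairs followed the same division, and the same limit holds for their p values. Pgk1_3 had a higher ratio than Actb by 0.66 ± 0.376 (SD, n = 10; 9 of 10 arrays; exact sign-flip p = 0.00391, adjusted 0.00586). It also had a higher ratio than Gapdh_3, by 0.65 ± 0.344 (SD, n = 10; 9 of 10 arrays; exact sign-flip p = 0.00391, adjusted 0.00586). The exception in both was control replicate 2. Pgk1_3 and Gapdh_5 differed by -0.07 ± 0.264 (SD, n = 10; exact sign-flip p = 0.453), and Gapdh_3 and Actb by 0.0062 ± 0.356 (SD, n = 10; exact sign-flip p = 0.973), less than the spread between arrays.

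The difference between the Gapdh probes was next compared between the groups, since, where such probes lie at the ends of a transcript, their balance is a usual check on RNA quality. In Sup, Gapdh_3 minus Gapdh_5 was 0.27 ± 0.0608 in the controls and 0.26 ± 0.119 in the testosterone group (SD, n = 5 and 5; exact two-sided permutation p = 0.865). In IP it was -0.52 ± 0.156 and -0.40 ± 0.120 (SD, n = 5 and 5; exact two-sided permutation p = 0.206). The groups overlapped in both fractions. The smallest p that 5 arrays against 5 allow is 0.00794.

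The IP comparison depended on control replicate 2 and on the second scan. In IP, Gapdh_3 minus Gapdh_5 was -0.61, -0.25, -0.64, -0.56 and -0.54 in control replicates 1 to 5. In testosterone replicates 1 to 5 it was -0.49, -0.47, -0.49, -0.31 and -0.23. Without control replicate 2, the value of -0.25, the difference between groups became 0.19 (exact two-sided permutation p = 0.0238, adjusted 0.0357 over the 3 comparisons of these probes). The change of this difference from Sup to IP became 0.21 (exact two-sided permutation p = 0.0159, adjusted 0.0357). Control replicate 2 was the distant control in this same IP difference, so these p values are not independent of leaving it out. With all arrays the change was 0.13 (p = 0.254 by the same exact test), and in the first scan alone 0.08 (p = 0.571 by the same exact test). In IP the difference in the first scan alone was 0.03 (p = 0.821 by the same exact test). With both the second scan and control replicate 2 left out, neither passed the threshold: the difference was 0.10 in IP and the change between fractions 0.16 (exact two-sided permutation, adjusted p = 0.0857 for each). The remaining arrays of the groups did not overlap in IP, nor in the change (-0.99 to -0.78 in controls, -0.76 to -0.63 with testosterone). So few arrays allow fewer arrangements than 5 against 5, so this miss cannot be read as no difference. The lack of overlap cannot be read as a difference either, since control replicate 2 was left out after its value here was seen. Also, control replicates 1, 3 and 4 were on another slide than testosterone replicates 1 to 3. How often other pairs of probes separate in this way was not examined.

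A reference gene serves to scale other transcripts, so each gene was also set against the others within an array. These log2 differences carry each probe's own brightness, and only their change between groups or fractions can be read. Actb minus Gapdh (the mean of both Gapdh probes) was -1.54 ± 0.0791 in IP in the controls and -1.81 ± 0.640 in the testosterone group (SD, n = 5 and 5; exact two-sided permutation p = 0.302, adjusted 0.418 over 9 comparisons). In the testosterone group the values in IP were -1.65, -1.59, -0.95, -2.58 and -2.29 for replicates 1 to 5. The second-scan arrays were lower than all controls and replicate 3 was higher than all of them.

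Actb minus Pgk1 gave the lowest p. Its change from Sup to IP was -0.36, 0.07, -0.58, -0.76 and -0.38 in the controls and -0.82, -0.67, -0.73, -1.20 and -1.14 in the testosterone group. The group means were -0.40 ± 0.310 and -0.91 ± 0.245 (SD, n = 5 and 5), and they differed by -0.51, a 1.42-fold difference (exact two-sided permutation p = 0.0238, adjusted 0.214). The groups overlapped through control replicate 4 (-0.76). In the first scan alone the difference was -0.34 (p = 0.107 by the same exact test), and without control replicate 2 it was -0.39 (p = 0.0556 by the same exact test). The other 8 comparisons had exact permutation p values from 0.119 to 0.905.

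**Figure D4:**
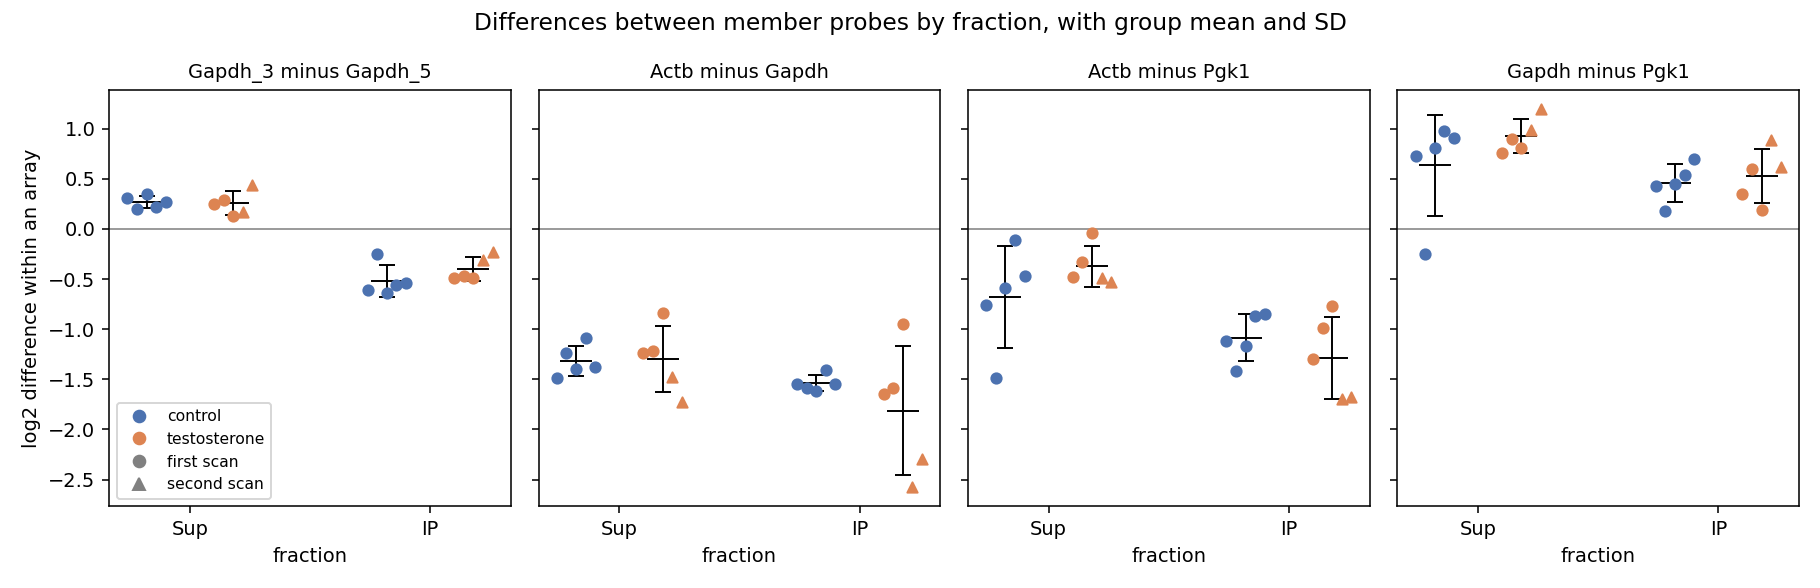
Log2 difference between probes within each array, by fraction, with the group mean and SD (n = 5 per group) in black and the second scan as triangles; the height of a panel reflects probe brightness and has no meaning as an amount. Gapdh_3 minus Gapdh_5 is above 0 in Sup and below 0 in IP on every array, and the testosterone group spans the wider range for Actb minus Gapdh in IP.

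Control replicate 2 was low for Actb and both Gapdh probes and high for Pgk1_3. Its scaled abundance was 1.65 for Actb, where the other controls lay from 1.96 to 2.30. Its scaled abundance was 3.02 for Gapdh_3 where the other controls lay from 3.49 to 3.58, and 2.98 for Gapdh_5 against 3.46 to 3.52. For Pgk1_3 it was 3.11 against 2.64 to 2.84. Control probes named for other species were higher on that array than on any other control in 4 of the 5 that were well above background on all arrays. Human-GAPDH_5 was at 1.90 there against 1.20 to 1.33, and Human-PGK1_3 at 2.10 against 1.46 to 1.66. Rat-GAPDH_3 was at 1.51 against 1.11 to 1.18 and Human-GAPDH_3 at 3.98 against 3.69 to 3.86, while Rat-GAPDH_5 was at 1.87 against 1.90 to 1.99. Why this array differed was not tested.

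The spread within groups was then placed among all probes. In scaled abundance the SD within groups was 0.376 for Actb, and 88.9% of the 47571 probes varied less. It was 0.181 for Gapdh_3 (43.0% varied less), 0.186 for Gapdh_5 (45.1%) and 0.236 for Pgk1_3 (63.4%), and the median probe had 0.198. On these arrays, Gapdh thus lay near the middle of all transcripts and Actb among the more variable ones. Without control replicate 2 the SD fell to 0.100 for Gapdh_3 (11.9% varied less) and 0.0981 for Gapdh_5 (10.9%). In the first scan alone Actb had 0.235, and 75.9% of probes varied less. There Gapdh_3 had 0.186 (59.8% varied less) and Gapdh_5 0.188 (60.8%), both above Pgk1_3 at 0.166 (51.3%).

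Taken by fraction, Gapdh_3 in IP had an SD within groups of 0.0547, and only 0.126% of probes varied less. In Sup the same probe had 0.239 (44.0% varied less). For the ratio, Gapdh_5 had the lowest SD of the 4 probes, 0.0815, and 0.186% of 41348 probes varied less. Actb, Gapdh_3 and Pgk1_3 had 0.235, 0.206 and 0.198, each below the median of 0.287. A mean of up to 10 spots is less noisy than a single spot, and most probes of the array were printed once, so these shares do not compare like with like.

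**Figure D5:**
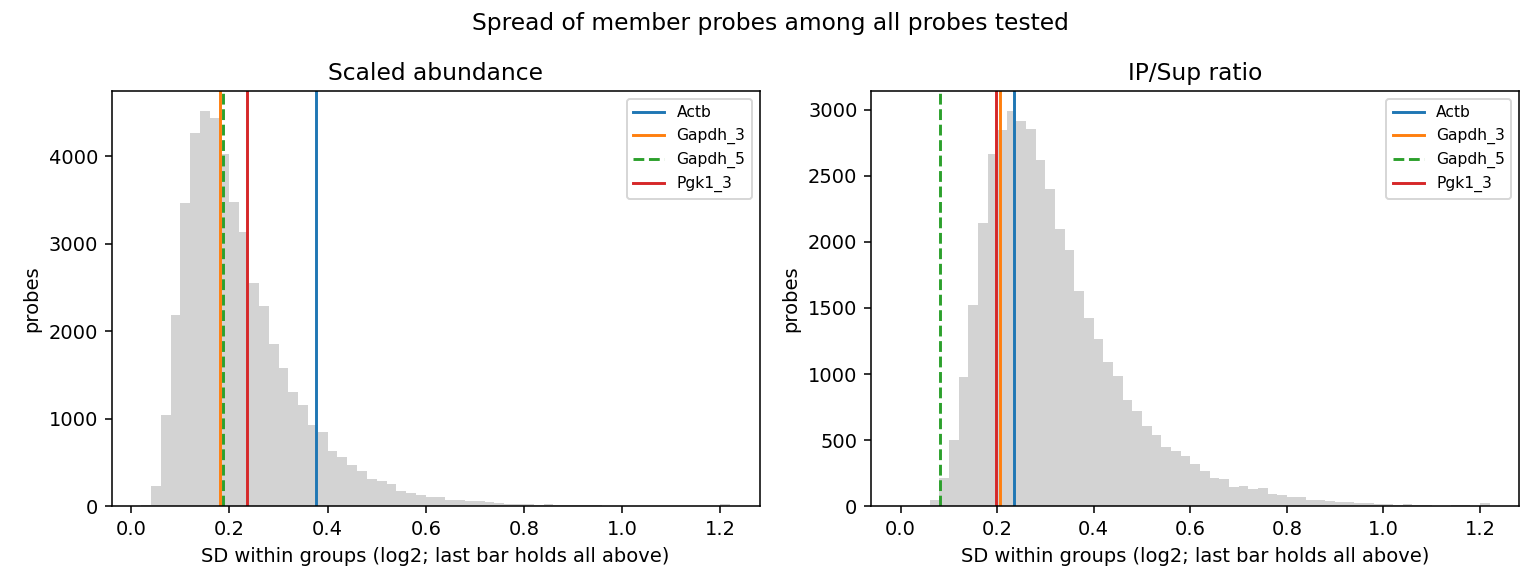
Number of probes (grey bars) by SD within groups on the log2 scale, for scaled abundance (47571 probes) and the IP/Sup ratio (41348 probes), with a line for each detected probe of the 3 genes. Actb (0.376) lies in the upper part of the abundance distribution, and Gapdh_5 (0.0815) near the lower end of the ratio distribution.

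How far the 3 genes moved together from array to array depended on the arrays taken. Over the 10 arrays, scaled abundance of Actb and Pgk1_3 correlated with r = 0.44 (Spearman 0.39), that of Actb and Gapdh_5 with r = 0.74 (0.68), and that of Gapdh_5 and Pgk1_3 with r = -0.03 (0.14). In the 8 arrays of the first scan these values of r were -0.53, 0.71 and -0.78, and with control replicate 2 left out as well they were 0.08, -0.08 and 0.09. The other Gapdh probe gave different values. For Actb and Gapdh_3, r was 0.48 (Spearman 0.24) over the 10 arrays, 0.56 in the first scan and -0.73 with control replicate 2 also left out. For Gapdh_3 and Pgk1_3 it was -0.18 (0.03), -0.75 and 0.02 in the same order. These are descriptions of arrays that share slides, scans and scaling.

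Among the 39 other named probes tested for abundance, those most like each gene by Pearson r over the 10 arrays were as follows. Actb was most like Anxa8 (annexin A8; r = 0.87), H2-M2 (0.77) and Tm9sf1 (0.76), and in the first scan these values were 0.65, 0.42 and 0.44. Their Spearman values over the 10 arrays were 0.67, 0.67 and 0.52. Gapdh was like H2-Q7 (r = 0.93) and Tm9sf1 (0.82). Pgk1 was most like Spats1 (0.96), a gene of spermatogenic cells, Apoe (0.93), the lipid carrier apolipoprotein E, and Gamt (0.88), an enzyme of creatine synthesis. The Pgk1 and Spats1 values were as alike in the first scan alone (r = 0.95), while r there was 0.75 for Apoe and 0.67 for Gamt. The first scan still holds control replicate 2, the highest array for Pgk1_3 (3.11), and none of these values was computed without it.

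For the IP/Sup ratio, with 37 candidates, Actb was like Anxa8 (r = 0.82) and Duox1 (0.79), and in the first scan these values were 0.55 and 0.40. Their Spearman values over all arrays were 0.71 and 0.65. Gapdh was most like Ppara (0.87), Tm9sf1 (0.83) and Nup50 (0.56), with Spearman values of 0.83, 0.77 and 0.28. Pgk1 was most like the peroxiredoxin gene Prdx2 (0.85), Rps4l (0.82) and Gsdmd (0.73), with Spearman values of 0.68, 0.49 and 0.61. The values for the ratio were not computed without control replicate 2 either.

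Of 23 glycolysis genes listed, 1 further gene carried a name on a tested probe: Gpi1, glucose-6-phosphate isomerase, which acts upstream of both Gapdh and Pgk1. Its abundance differed by 0.20 ± 0.122 (SE, n = 5 and 5, limma, adjusted p = 0.386). Its ratio was -0.79 on average, on the Sup side like those of Gapdh and Pgk1, and differed between groups by 0.30 ± 0.149 (SE, n = 5 and 5, limma, adjusted p = 0.794). It was called in neither direction. Of 16 actin cytoskeleton genes, no gene other than Actb was named. Of 17 genes listed here as other reference genes, only Rps4l was named. Whether Rps4l serves as a reference gene was not examined. Its abundance difference was 0.17 ± 0.140 (SE, n = 5 and 5, limma, adjusted p = 0.514). The Rps4l ratio was -2.56 on average (limma, adjusted p = 6.42e-13), further toward Sup than that of any Actb, Gapdh or Pgk1 probe.

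The germ cell genes on the array are given beside the Pgk1 values, since Pgk1 is used differently by germ cells. Spats1 abundance differed by -0.31 ± 0.149 (SE, n = 5 and 5, limma, adjusted p = 0.326) and that of Hyal3, hyaluronidase 3, by -0.47 ± 0.094 (SE, n = 5 and 5, limma, adjusted p = 0.204). Of 13 germ cell markers listed, these were the 2 named, and neither passed the threshold. Their part in the Pgk1 values was not tested.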

How the data were processed

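The submitters' processing notes name Agilent Feature Extraction 11.0.1.1 as the program from which the authors took the spot values. The deposited processed signal is a linear intensity from which background had been subtracted, with a detrending over the array and a dye normalization (linear and lowess), per the file headers. Deposited flags of 0 or 1 mark spots above background, saturated or outlying. The deposited log2 value table holds only the IP channel, minus a constant per array, and none of the 5 probes, so it was not used. The antibody and the origin of those constants are not given in the sources used here.

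Spots flagged as outliers were dropped (3 to 10 of 100 per probe), and the rest averaged as log2 values. Abundance is log2 of the summed fractions, each divided by its 75th percentile; the ratio is log2 IP over Sup minus the array median. Probes had to be well above background on at least 5 arrays, in 1 channel for abundance and in both for the ratio; the 5 probes were kept regardless. Groups came from the sample titles. limma 3.58.1 in R 4.3.3 compared them with Benjamini-Hochberg adjustment at 0.05 over all probes. Single values used exact permutation or sign-flip tests. The fit was tested on simulated data: of 100 probes changed 2-fold and 100 changed 1.5-fold, it recovered 80 and 45 for abundance (45545 probes) and 55 and 8 for the ratio (39327 probes). Figures were drawn with matplotlib 3.10.9. The number of arrays limits the precision.

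The probes and gene lists were chosen with earlier results of these data known, and the comparisons between the 3 genes were added after the data were seen. Named genes were all probes of the 3 genes, the 3 named probes most like each, and every listed gene found on a tested probe; 1 gene that the rule takes as like Actb and Gapdh is not reported here. A planned comparison of the Pgk1 ends was not made, since Pgk1_5 was not well above background. Names came from RefSeq (GRCm38.p6); the array design names another build, so no coordinates are given. Replicate numbers are shared by the groups, but same-numbered arrays deviated together with correlations of -0.05 to 0.21 in abundance and -0.03 to 0.04 in the ratio, so they were not treated as pairs. Alternatives covered background correction, flagged spots, averaging, filters, scaling, centring, slide, scan, replicate block and each array left out.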

Additional observations from a re-analysis of the deposited data

Results flagged for a closer look

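Of 32 sets of 5 arrays examined for a single distant array, 4 had one, where chance gives about 1 in 20, and in all 4 it was control replicate 2. Its scaled abundance was 3.02 for Gapdh_3 and 2.98 for Gapdh_5, each below all other controls (3.49 to 3.58 and 3.46 to 3.52). In IP its Gapdh_3 minus Gapdh_5 difference was -0.25, nearest to 0 of the controls. In Sup its Gapdh minus Pgk1 difference was -0.25, the only one below 0. These sets share probes, so the 4 are not independent of each other.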

How the results depend on the processing

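The IP/Sup ratio against the array median kept its direction and its side of the threshold for all 4 probes under all 17 alternatives run. It ranged from -1.54 to -1.32 for Actb, -1.55 to -1.31 for Gapdh_3, -0.88 to -0.59 for Gapdh_5 and -0.89 to -0.66 for Pgk1_3. The higher ratio of Gapdh_5 over Gapdh_3 stayed between 0.59 and 0.80 over 15 alternatives. No abundance or ratio difference between groups passed the threshold under any alternative; the lowest adjusted p values by limma were 0.319 and 0.682.

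Small differences (testosterone minus control) changed sign, and the cause was not tested. Abundance of Gapdh_3 was -0.022 with normexp background correction and -0.064 with quantile normalization, and that of Gapdh_5 was 0.0058 with flagged spots kept. In Sup alone the difference was 0.022 for Actb and 0.012 for Gapdh_5. With the second scan left out, or with scan as a block, abundance differed by 0.28 for Actb and 0.088 for Gapdh_5. With the second scan left out, in IP, Actb minus Gapdh differed by 0.14, Actb minus Pgk1 by 0.065 and Gapdh minus Pgk1 by -0.080. With slide as a block, and in the slide shared by both groups, abundance differed by 0.23 for Actb, -0.019 for Gapdh_3 and 0.16 for Pgk1_3, and the Gapdh_5 ratio by 0.0067. With spike-in centring the Gapdh_5 ratio differed by 0.024. With control replicate 2 also left out beside the second scan, a choice made after seeing the data, abundance differed by 0.19 for Actb, -0.029 for Gapdh_3 and 0.062 for Pgk1_3. There Actb minus Gapdh in IP differed by 0.13, and Gapdh minus Pgk1 by -0.036 in Sup and -0.15 in IP.

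Leaving out 1 array at a time moved the abundance difference from -0.19 to 0.085 for Actb, -0.077 to 0.075 for Gapdh_3 and -0.11 to 0.036 for Gapdh_5. Gapdh_3 minus Gapdh_5 moved from -0.057 to 0.020 in Sup, 0.076 to 0.19 in IP and 0.079 to 0.21 for the change between fractions; the highest IP value and the highest change were those without control replicate 2. Actb minus Gapdh in Sup moved from -0.10 to 0.12 and Gapdh minus Pgk1 in IP from -0.019 to 0.16.

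Of all probes, 3 were called for abundance. This count was 1 with the second scan left out, no filter, the filter on all 10 arrays, quantile normalization or the replicate block, 0 with scan as a block, Sup alone or control replicate 2 also left out, 6 with spike-in scaling, and 0 to 2 with 1 array left out. Probes called on the IP side numbered 4412 with normexp against 8075. With the replicate block the differences themselves are those of the unblocked fit, for example -0.20 for Pgk1_3 abundance (limma, adjusted p = 0.335), and no call for these probes changed. The alternative on the authors' value table was not run, since it holds none of these probes.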
